A study of Mus musculus with 1 sample.

Results

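Molecular chaperones of the heat shock, DnaJ and CCT families were read on 1 microarray of parental RAW264.7 cells, a mouse macrophage-like line. The genes were chosen by name: a probe counted where its symbol in the platform annotation belonged to the Hsp70, Hsp90, Hsp60 and Hsp10, small heat shock, DnaJ, CCT, heat shock factor or BAG families, or was Stip1 or St13. This took 95 probes of 89 genes, out of 20690 named probes of 19321 genes. The cells were the untreated parent of lines mutagenised with ENU, a DNA alkylating agent, and sorted for loss of peroxiredoxin uptake, and they were grown in RPMI-1640 with fetal calf serum. Arrays of mutant lines were not analysed here, so the values are the levels of 1 sample, with no replicate, no test between groups and no p-value, and the number of arrays limits their precision.

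Chaperones help other proteins to fold, keep them from clumping and hand them on for assembly or breakdown. Hsp70 proteins bind short stretches of unfolded chain in a cycle driven by ATP, in which DnaJ proteins (also called J proteins) bring the client and start ATP hydrolysis, and exchange factors let ADP and client go. Hsp90 acts later, on proteins such as kinases and steroid receptors, and the CCT chaperonin is a closed chamber that folds actin and tubulin. Heat shock factors are the transcription factors that bind heat shock elements, and the ER stress element lies before genes of the unfolded protein response. Hsp70 with J proteins of the auxilin family also strips clathrin from coated vesicles, a step of endocytosis.

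Gene signal is the median pixel intensity of the spot, in arbitrary units, and a gene takes its highest probe. The blank threshold was a signal of 23.0, which is 2 SD above the mean of the spots that carry no probe. The stricter receptor threshold was 55.8, the 95th percentile of probes for smell and taste receptors. How bright a spot is depends in part on its probe. Genes are therefore read against the thresholds and not against each other, and a low reading does not tell a scarce transcript from a probe that binds poorly.

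The promoters of 7 of these genes held the full form of a heat shock or an ER stress element, and they are shown because these are the full forms. All 7 genes read over the receptor threshold, Dnajb6 on 1 of its 2 probes. That threshold was passed by 70.8% of the 89 chaperone genes and 42.7% of all named genes. Promoters here are the 250 bases before and the first 50 bases after a start site in RefSeq, build GRCm38.p6, and 72 of the 89 genes had at least 1 in the table. Genes without a promoter there, among them Hspa8, Hsp90aa1 and Cct4, were not searched. The ER stress element was taken as CCAAT and CCACG with 9 bases between, on either strand, and it was found in 3 of the 72 genes, or 4.17%, against 37 of 27025 genes in the whole table, or 0.137%. Capitals mark the element in the lines that follow, from the start of each gene's match less 30 bases to its end plus 30. They lie at chr2:34771995-34772073 (plus strand, Hspa5), chr10:86705503-86705686 (minus strand, Hsp90b1) and chr14:118937797-118937875 (plus strand, Dnajc3).
Hspa5: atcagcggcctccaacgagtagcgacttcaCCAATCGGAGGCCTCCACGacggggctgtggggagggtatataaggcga
Hsp90b1: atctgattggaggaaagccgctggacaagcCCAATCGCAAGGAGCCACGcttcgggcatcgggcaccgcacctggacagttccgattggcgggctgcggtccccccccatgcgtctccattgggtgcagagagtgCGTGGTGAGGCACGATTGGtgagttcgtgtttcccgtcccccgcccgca
Dnajc3: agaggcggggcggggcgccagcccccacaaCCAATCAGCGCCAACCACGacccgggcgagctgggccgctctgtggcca

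All 3 genes make chaperones of the endoplasmic reticulum (ER), the compartment where secreted and membrane proteins fold. Hspa5 encodes BiP, the Hsp70 of that compartment, and its element began 65 bases before the start site. Hsp90b1 encodes GRP94, the Hsp90 of the ER, and held 2 elements, 1 on each strand, at 212 and 107 bases before the start. Dnajc3 encodes the J protein P58IPK, and its element began 105 bases before the start.

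The heat shock element was searched as alternating units of GAA and TTC with 2 bases between units. In its form of 3 units it was found in 4 of the 72 genes, or 5.56%, against 179 of 27025, or 0.662%. Here the capitals mark every base covered by a match, and up to 40 bases are given on each side within the promoter. The stretches are chr1:55088019-55088116 (plus strand, Hspe1), chr5:149636266-149636340 (minus strand, Hsph1) and chr5:29735812-29735904 (plus strand, Dnajb6).
Hspe1: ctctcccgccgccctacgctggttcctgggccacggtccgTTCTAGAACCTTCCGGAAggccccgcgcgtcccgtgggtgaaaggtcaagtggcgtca
Hsph1: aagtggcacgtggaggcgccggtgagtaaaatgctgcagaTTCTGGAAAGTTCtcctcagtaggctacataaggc
Dnajb6: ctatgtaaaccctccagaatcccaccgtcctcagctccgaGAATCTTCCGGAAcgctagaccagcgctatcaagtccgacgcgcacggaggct

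Hspe1 and Hspd1, the partners of the mitochondrial chaperonin, share this stretch. They are read in opposite directions from start sites 216 bases apart, and the overlapping matches belong to both promoters. Hspd1 has a further start site in the table, 95 bases beyond that of Hspe1, whose promoter held no match. In Hsph1 the element lay after the start site, at base 16 or 37 depending on which of 2 start sites is taken, and in Dnajb6 it began 46 or 127 bases before.

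The shorter form of 2 units, GAANNTTC or TTCNNGAA, was more common everywhere, in 19 of 72 genes, or 26.4%, against 17.0% of all genes in the table. Each of these spellings reads the same on both strands, and matches of the longer form contain them. Over the receptor threshold were 13 of the 19 genes with this form, and 38 of the 53 genes without it. Dnaja4, Dnajc5g, Hspb3 and Hspb8 held this form without the longer one, did not pass the receptor threshold and are not shown. The promoters of Hspa1a (chr17:34972213-34972300, minus strand) and Hspb1 (chr5:135887762-135887869, plus strand) also held this form without the longer one in the window. They were picked by hand, as textbook targets of heat shock factor that did not pass the receptor threshold.
Hspa1a: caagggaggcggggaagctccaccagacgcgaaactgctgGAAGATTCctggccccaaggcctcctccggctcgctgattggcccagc
Hspb1: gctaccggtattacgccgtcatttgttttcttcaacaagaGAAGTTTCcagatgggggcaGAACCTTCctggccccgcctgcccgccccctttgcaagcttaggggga

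**Figure D1:**
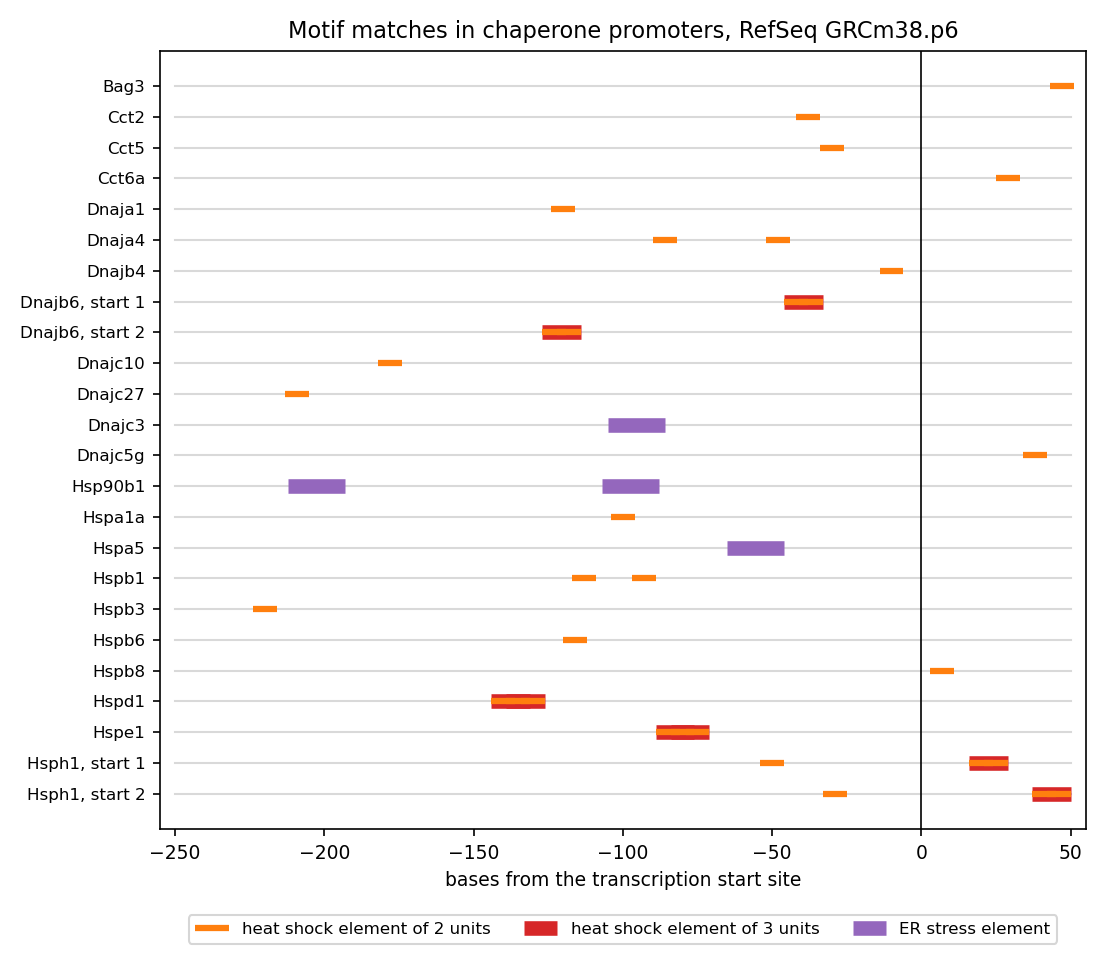
Each row is a promoter of a chaperone gene that held a match, with the distance in bases from its start site on the x axis; bars mark heat shock elements of 2 units (orange) and 3 units (red) and ER stress elements (purple). Genes with 2 start sites with a match have 2 rows, and red bars are found in 4 genes, Dnajb6, Hspd1, Hspe1 and Hsph1.

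A match describes the letters in the window and was not tested as a bound site. Over the receptor threshold were 4 of 4 genes with the heat shock element of 3 units and 47 of 68 without it. Dnajb6 lost its call with the 99th percentile of the receptor probes and where all probes of a gene had to pass, which left 3 of 4, against 38 and 43 of the 68. Over the receptor threshold were also 3 of 3 genes with the ER stress element and 48 of 69 without it.

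Of the 89 chaperone genes, 75 passed the blank threshold, or 84.3% (exact Clopper-Pearson 95% interval 75.0 to 91.1), against a background of 72.8% of all named genes. The receptor threshold was passed by 63 genes, or 70.8% (60.2 to 79.9), against 42.7% of all named genes. Their median signal was 221, and the median over all named genes was 40.1. This is a description only, since different probes are set side by side, and the ratio of 5.51 depended on the scale: it was 10.8 in the authors' deposited table and 2.29 with normexp. Between the thresholds lay 12 genes and not over the blank threshold 14. These intervals hold counting error over genes alone, and 1 array cannot show how far these shares vary between cultures.

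**Figure D2:**
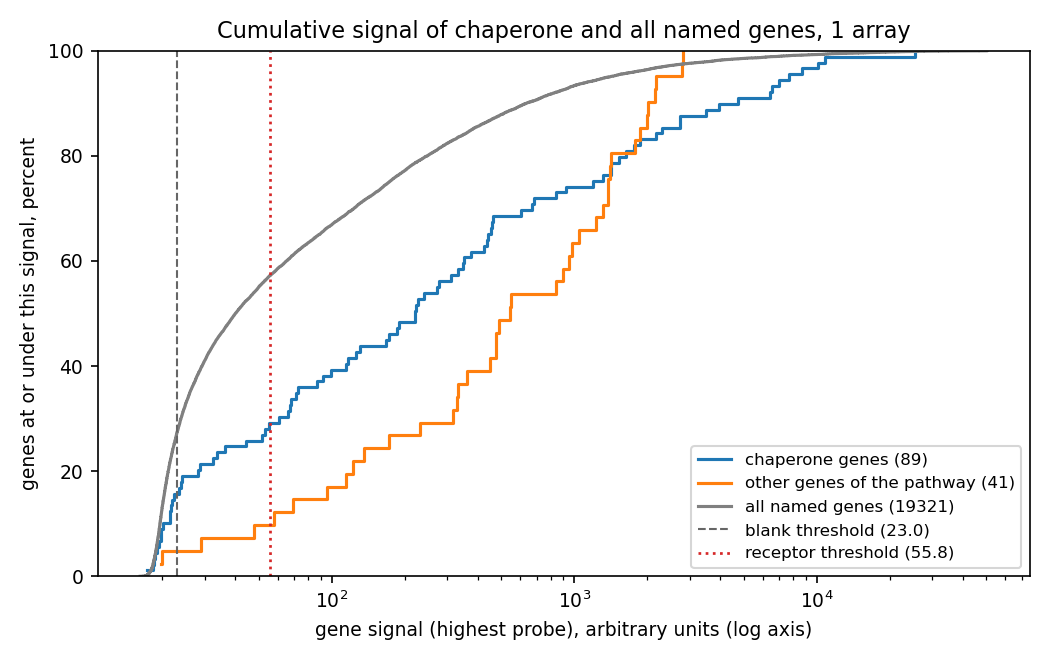
The share of genes at or under each signal (y axis, percent) is plotted against gene signal on a log axis for the 89 chaperone genes, the 41 other genes of the pathway and all 19321 named genes of the 1 array; vertical lines mark both thresholds. At the receptor threshold the curve of the chaperone genes stands lower than that of all genes, with 70.8% of them above it against 42.7%.

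The Hsp70 proteins of cytosol and nucleus split between clear signal and signal near the blanks. Hspa8, the constitutive Hsc70 that also uncoats clathrin vesicles, read 25455. Hspa14, an Hsp70 of the ribosome, read 1194. These were the 2 of 7 genes over the receptor threshold, or 28.6%, against 42.7% of all named genes. Hspa1a, a classical heat-inducible Hsp70, read 19.3 on its 1 probe and was not over the blank threshold in any of the 9 alternative settings run. Its copy Hspa1b is nearly identical, so a probe of this kind may read either transcript. Hspa1l, its neighbour known from testis, read 21.5, Hspa2, also known from testis, read 33.5, and the distant relatives Hspa12a and Hspa12b read 24.1 and 20.2. Thus, of the group's other 5 genes, 2 lay between the thresholds and 3 were not over the blank threshold.

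Hsp70 proteins of organelles passed the blank threshold in all 3 cases, against 72.8% of all named genes. The receptor threshold was passed by 2, against 42.7% of all named genes. Hspa5 of the ER, whose ER stress element is shown above, read 10084. Hspa9, mortalin of the mitochondrial matrix, read 1641. Hspa13, a microsomal relative, lay between the thresholds at 51.5, and passed the receptor threshold when local background was subtracted.

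Every one of the 10 exchange factors passed the blank and the receptor threshold, against 72.8% and 42.7% of all named genes. Bag3, Bag4 and Hspa4l did not pass the 99th percentile of the receptor probes, which 27.5% of all named genes passed. Hspa4, of the Hsp110 branch that acts as exchange factor for Hsp70, read 3499, its relative Hspa4l read 126, and Hsph1 (Hsp105), with the heat shock element shown above, read 278. Hspbp1, a further exchange factor, read 438. The 6 BAG genes, named for the domain that binds Hsp70, ranged from 92.2 for Bag4 to 1772 for Bag1. Bag3, which works with small heat shock proteins and is heat-inducible, read 99.01, Bag2, a brake on the ubiquitin ligase CHIP, read 453, Bag5 read 226 and Bag6, which guards tail-anchored membrane proteins, read 464.

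Hsp90 and its adaptors passed both thresholds too, in 4 of 4 cases, against 42.7% of all named genes at the receptor threshold. Hsp90ab1, of the same group, had no probe under its symbol and was not measured. Hsp90aa1, the inducible cytosolic Hsp90, read 8685, and Hsp90b1 of the ER read 7717. Stip1, known as HOP, which joins Hsp70 to Hsp90, read 845, and St13, known as HIP, which steadies the Hsp70 and client complex, read 1316. The group median was 4516.

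The chaperonins gave signal for every subunit in general use that was measured. Of the 8 CCT genes, 7 passed both thresholds, against 72.8% of all named genes at the blank and 42.7% at the receptor threshold. The 7 read from 2183 to 6980: Cct2 3972, Cct3 6520, Cct4 6980, Cct5 4716, Cct6a 2722, Cct7 2183 and Cct8 6418. These 7 proteins sit side by side in 1 ring and are needed in equal number, yet their probes cannot be compared as amounts. Tcp1, a further subunit of that ring, had no probe under its symbol and was not measured. The 8th gene measured, Cct6b, a testis form of the same position in the ring as Cct6a, read 22.1 and was not over the blank threshold. The spot of Cct3 had a local background of 6593, above its own 6520, and after subtraction it no longer passed either threshold. For the mitochondrial chaperonin, the barrel gene Hspd1 read 10796 and the lid gene Hspe1 read 2723.

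**Figure D3:**
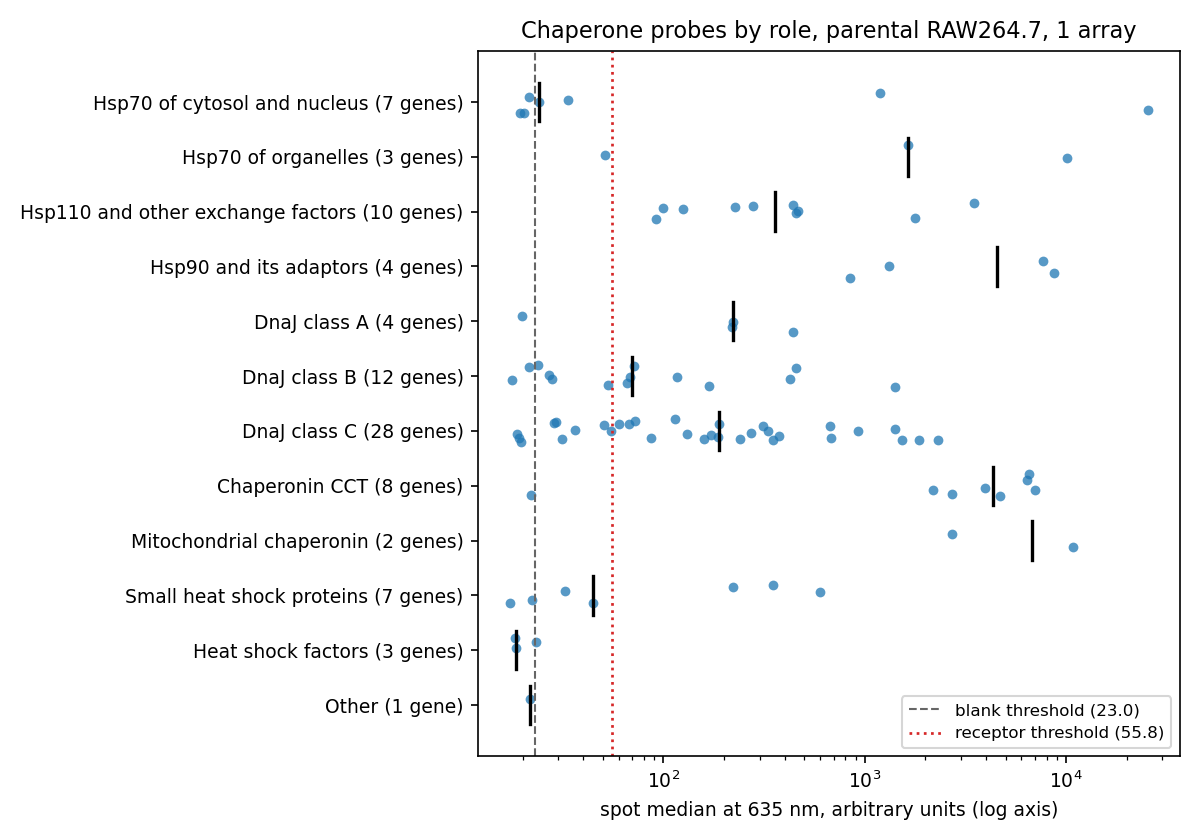
Each point is 1 of the 95 chaperone probes at its spot median (x axis, log scale, arbitrary units), by role group; black bars mark the median gene of the group, and the lines mark the blank threshold of 23.0 and the receptor threshold of 55.8. Exchange factors and Hsp90 genes all lie right of both lines, while 5 of the 7 cytosolic Hsp70 probes lie between 19.3 and 33.5, and Hspa14 and Hspa8 stand apart at 1194 and 25455.

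DnaJ genes, the largest family here, passed the blank threshold in 39 of 44 cases and the receptor threshold in 33, or 75.0% (59.7 to 86.8), against 42.7% of all named genes. The 44 count Dnajc19-ps, a pseudogene in class C over both thresholds, and without it 38 and 32 of 43 passed. By structural class, 3 of 4 genes of class A, 8 of 12 of class B and 22 of 28 of class C passed the receptor threshold. With the 99th percentile of the receptor probes, which 27.5% of all named genes passed, the counts were 3 of 4, 4 of 12 and 16 of 28. Where all probes of a gene had to pass, which 40.4% of all named genes did, they were 3 of 4, 6 of 12 and 19 of 28. Class A and B proteins chiefly serve cytosolic Hsp70 and refolding, while class C proteins share only the J domain and have specialised tasks. In class A, Dnaja1 read 440, Dnaja2 220 and the mitochondrial Dnaja3 222, while Dnaja4 read 19.8 and was not over the blank threshold.

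In class B, Dnajb1, the Hsp40 that works with Hsp70 in heat-stressed cells, read 457. The ER membrane proteins Dnajb12 and Dnajb14 read 116 and 425, Dnajb2 read 66.0 and Dnajb4 read 168. Dnajb6, which holds back aggregation, read 68.2 on 1 probe and 27.1 on the other. Between the thresholds lay Dnajb3 at 28.1, Dnajb5 at 23.9 and the ER protein Dnajb9 at 53.2, and Dnajb13, a protein of the sperm axoneme, read 21.5 and did not pass. Dnajb5 was near the blank threshold, and fell under it in 5 of 9 alternative settings.

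The J proteins of the ER, which serve Hspa5, all passed the blank threshold and 4 of 5 passed the receptor threshold. Of all named genes, 72.8% and 42.7% passed these. Where all probes of a gene had to pass, 3 of 5 were over the receptor threshold, against 40.4% of all named genes. Dnajb11, a secreted-client chaperone known as ERdj3, read 1413. Dnajc3 read 374 and 160 on its probes, Dnajc10, which reduces wrong disulfide bonds, read 240, and the membrane protein Dnajc1 read 272 and 50.9. Dnajb9, a repressor of the stress sensor IRE1, was the gene between the thresholds. Thus 2 of the 3 genes with an ER stress element were Hspa5 and Hsp90b1 themselves, and 1 was a J protein of this group.

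For mitochondria, 5 of 6 J proteins passed both thresholds, against 42.7% of all named genes at the receptor threshold. At the 99th percentile of the receptor probes 4 of 6 passed, against 27.5% of all named genes. Dnajc15 and Dnajc19, which start the import motor of the inner membrane, read 683 and 72.5. Dnajc11, linked to the cristae, read 332, Dnajc30 read 312, and Dnajc28 read 18.6 and was not over the blank threshold. A probe for the pseudogene Dnajc19-ps read 2308. Whether either probe also reads the other transcript was not tested, so both levels are uncertain.

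J proteins of ribosome, chromatin and splicing passed both thresholds in 5 of 5 cases, against 42.7% of all named genes at the receptor threshold. At the 99th percentile of the receptor probes 4 of 5 passed, against 27.5% of all named genes. Dnajc2, the partner of Hspa14 on the ribosome, read 1535. Dnajc8 and Dnajc17 of the splicing machinery read 1861 and 86.7, the histone chaperone Dnajc9 read 1416, and Dnajc21, which acts in assembly of the large ribosomal subunit, read 349.

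Among J proteins of vesicles and endosomes, which work in membrane traffic, 2 of 5 passed the receptor threshold, or 40%, against 42.7% of all named genes. With the 99th percentile of the receptor probes, or where all probes of a gene had to pass, 1 of 5 did. Dnajc5, the cysteine string protein of secretory vesicles, read 131. Dnajc13, known as RME-8, which works with Hsc70 on endosomes, read 186 on 1 probe and 29.3 on the other. Dnajc6, the auxilin known mainly from neurons, lay between the thresholds at 28.6, and was not over the blank threshold once local background was subtracted. Gak, the auxilin relative found in most tissues, which is not named as a DnaJ gene, read 231. The germ-line forms Dnajc5b and Dnajc5g read 19.1 and 19.7 and did not pass.

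The remaining class C genes were mostly over the receptor threshold. Dnajc7, whose TPR repeats bind both Hsp70 and Hsp90, read 927, and Dnajc24, of diphthamide synthesis on elongation factor 2, read 668. Dnajc4 read 190, Dnajc27 read 114, Dnajc14 read 173 and 31.3 on its probes, Dnajc18 read 67.3 and Dnajc16 read 60.4. Dnajc12 lay just under the receptor threshold at 54.9 and Dnajc22 between the thresholds at 36.2.

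Small heat shock proteins, which hold unfolded chains without ATP, passed at shares near those of all named genes. Of 7 genes, 5 passed the blank threshold, or 71.4% against 72.8%, and 3 the receptor threshold, or 42.9% against 42.7%. Hspb1, the main stress-inducible member in most cells, lay between the thresholds at 44.5, and Hspb8, the partner of Bag3, did too at 32.4. Over the receptor threshold were Hspb6 at 221, Hspb7 at 601 and Hspb11 at 351. The last is a protein of intraflagellar transport named for its fold. Hspb3 and Hspb9 read 17.3 and 22.3 and were not over the blank threshold.

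No heat shock factor gene passed the receptor threshold among the 3 measured, against 42.7% of all named genes. Hsf1 had no probe under its symbol, so its level is not known here. Hsf2 read 23.4, just over the blank threshold, and was under it in 6 of 9 alternative settings. Hsf3 and Hsf4, the second known from the lens, both read 18.4 and did not pass. Hspbap1, a protein that binds Hspb1, read 21.7 and did not pass either.

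**Figure D4:**
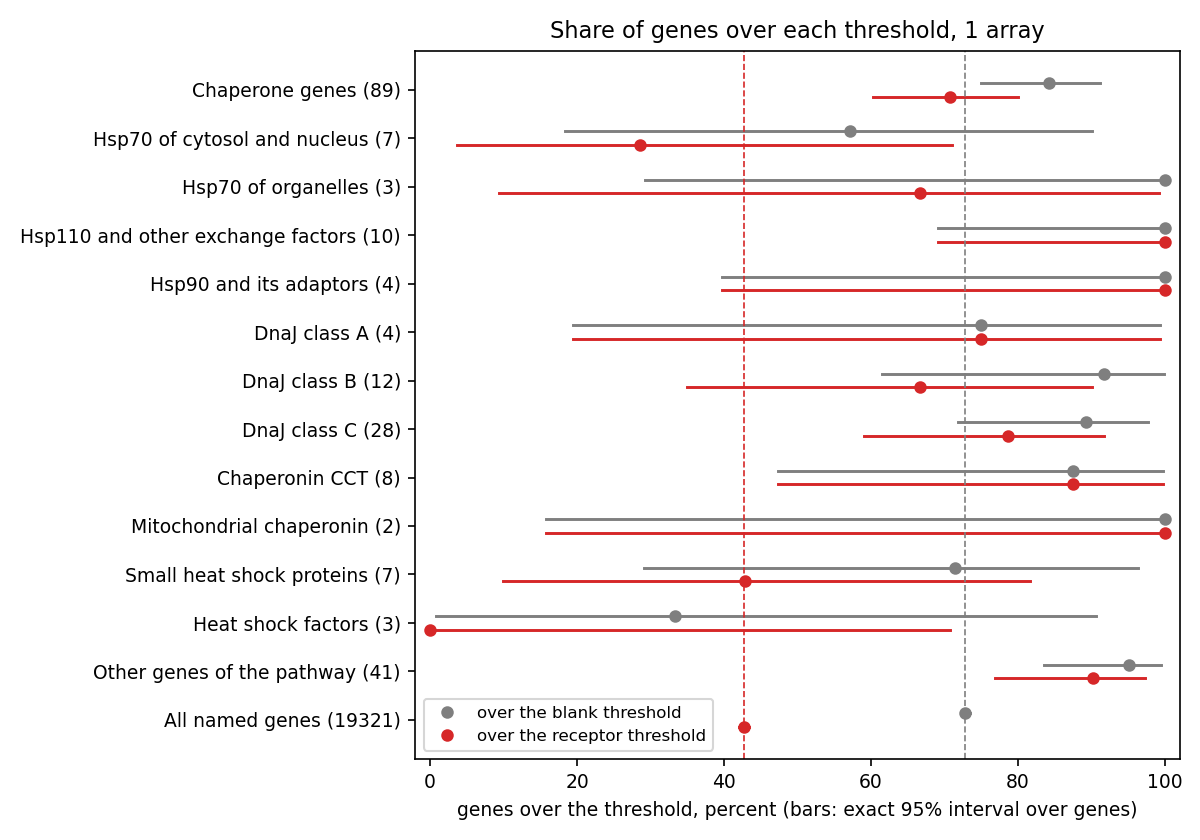
Points give the percent of genes over the blank threshold (grey) and over the receptor threshold (red) for all chaperone genes, each role group, the other genes of the pathway and all named genes, with the number of genes in brackets; bars are exact 95% intervals over genes, and dashed lines are the shares of all named genes. Groups of under 10 genes have wide intervals, and the red interval of the 89 chaperone genes, 60.2 to 79.9, lies right of the red line at 42.7. The intervals take genes as independent of each other and are not a test.

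Members known mainly from other tissues were read apart. For scale, 72.8% of all named genes passed the blank threshold and 42.7% the receptor threshold. Of 9 known mainly from testis, 3 passed the blank threshold and 1 the receptor threshold, with a median signal of 22.1. The 1 was Dnajb8, at 71.6 on 1 probe and 17.7 on the other, and it fell under the receptor threshold once local background was subtracted. Of 10 germ cell markers, 6 passed the blank threshold and 2 the receptor threshold, in a range of 17.7 to 190. Acrv1 read 62.4 and Ddx4 read 190, while Akap4 and Dazl read 32.8 and 24.4. The part of such transcripts in the Dnajb8 reading was not tested.

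Of 4 members known mainly from striated muscle, 3 passed the blank threshold, or 75%, against 72.8% of all named genes. The receptor threshold was passed by 2, Hspb6 and Hspb7, or 50%, against 42.7% of all named genes. The 10 muscle markers read from 19.9 to 23.8, with 3 over the blank threshold and 0 over the receptor threshold, among them Acta1 at 20.9, Actn2 at 21.2 and Ckm at 23.8. The 9 markers of neurons and glia read from 18.3 to 54.2, with 4 over the blank threshold and 0 over the receptor threshold, among them Gad1 at 32.0, Gfap at 21.1 and Map2 at 22.2. All 10 macrophage markers passed both thresholds, among them Adgre1 (F4/80) at 205, Cd14 at 6216 and Cd68 at 6442.

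The other genes of the pathway passed at high shares as well. They came from a list of partners that was chosen with earlier results of these data known. Of 41 genes, 39 passed the blank threshold, or 95.1%, against 72.8% of all named genes. The receptor threshold was passed by 37, or 90.2% (76.9 to 97.3), against 42.7% of all named genes. At the 99th percentile of the receptor probes 31 of 41 passed, or 75.6%, against 27.5% of all named genes. All 14 partners of Hsp90 and Hsp70 passed both, among them Ahsa1, which speeds up the Hsp90 ATPase, at 2774, and Cdc37, which brings kinases to Hsp90, at 2002. Of 10 genes of prefoldin and the phosducin-like helpers of CCT, 9 passed both. Pdcl read 362, and Pdcl2, a form known from germ cells, read 19.9 and did not pass. The 7 mitochondrial partners passed both, with the protease subunits Clpp and Clpx at 953 and 329.

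ER partners passed the receptor threshold in 5 of 6 cases, against 42.7% of all named genes. The lectin chaperones Calr and Canx read 544 and 2807, and Hyou1, an exchange factor for Hspa5, lay between the thresholds at 47.7. The small heat shock proteins of the lens read low, Cryaa at 19.7 and Cryab at 29.0, the second between the thresholds. Hsbp1, which binds heat shock factor trimers, read 1385.

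Probes of the same gene often disagreed. Of the 89 genes, 6 had several probes, and the highest was 2.34 to 6.35 times the lowest. In 5 of the 6 the probes fell on different sides of the receptor threshold, namely Dnajb6, Dnajb8, Dnajc1, Dnajc13 and Dnajc14, and in Dnajb8 also of the blank threshold. The probes of Dnajc3 fell on 1 side of both. The other 83 genes rest on 1 probe each.

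Local background was bright around bright spots. Across the 95 chaperone probes it ranged from 14.5 to 6593 with a median of 42.8, and Spearman's rho with the spot was 0.899, given as a description over probes of 1 array. The spot was at a median 2.34 times its local background, and the background exceeded the spot in 2 probes, those of Cct3 and Hsf4.

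**Figure D5:**
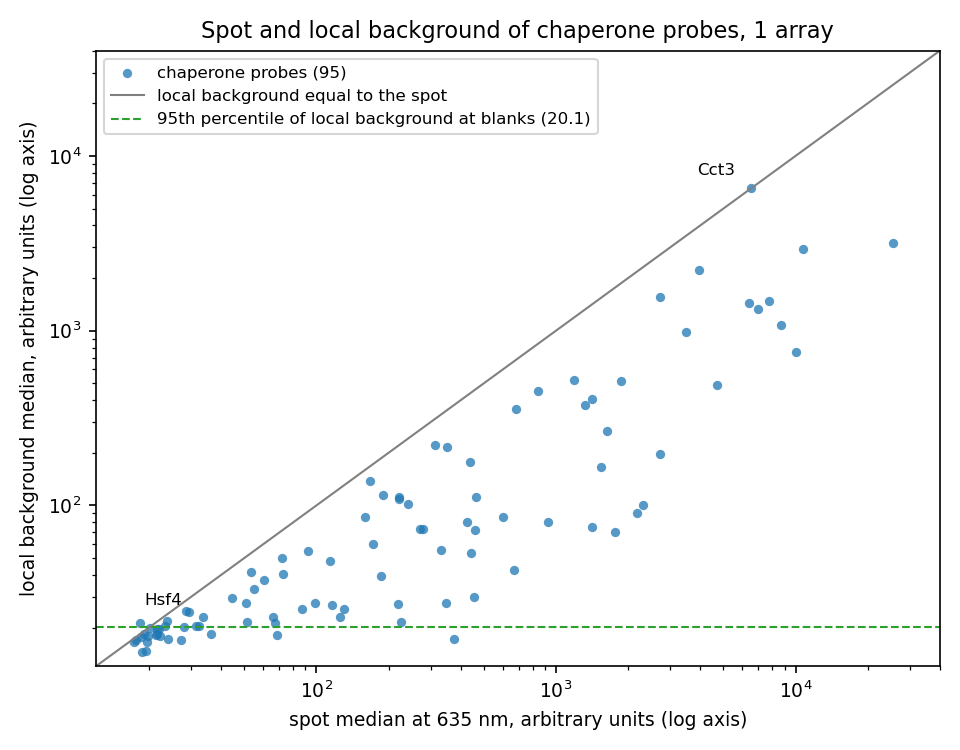
Each point is 1 of the 95 chaperone probes, with its spot median on the x axis and its local background on the y axis, both in arbitrary units on log axes; the diagonal marks equal values and the dashed line the 95th percentile of local background at blank spots, 20.1. Brighter spots have brighter surroundings, and Cct3 and Hsf4 lie above the diagonal.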

How the data were processed

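Per the labels' protocols, total RNA of the parental line was amplified to amino allyl RNA and coupled to Cy5. The deposited scanner file gives, per the file headers, the intensity of each spot (its median pixel at 635 nm) and of the local background, not subtracted, from a scan at 3 gains. A second table, of processed intensity, was deposited by the authors. For chaperone probes over 200 in it, its values were 0.486 times the spot median less the blank mean (SD 0.00027 over 33 probes), and 15 of 95 chaperone probes had an empty cell there, each not over the blank threshold. Its median over all probes with a value was 25. It is linear and has no direction, it was not centred beyond the blank mean, and why it was scaled so is unknown.

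Signals are spot medians, averaged over spots of a probe. The blank threshold of 22.98 is the mean, 20.6, plus 2 SD of 1.18 over 2464 blanks, after 5% of the 2736 were left out at each end. The receptor threshold was taken over 1221 olfactory, vomeronasal and taste receptor probes, at their 95th percentile. Names came from the platform annotation. All 89 gene identifiers matched a RefSeq gene table of GRCm38.p6. Promoter sequences are RefSeq's. Shares have exact Clopper-Pearson intervals at 95%. The intervals were tested on simulated data, and the blank threshold was run on them too. Its simulated unlit probes were given a narrower spread than the blanks. That run therefore cannot show how often real unlit probes pass. Alternatives were other widths and kinds of the blank threshold, other receptor percentiles, local background subtraction, normexp with an offset of 50, the authors' table, calls on all probes, other summaries of probes and updated symbols. Every chaperone gene could be named, and of the other lists the first in alphabetical order, pathway genes not over the receptor threshold and markers over it. The members, lists and thresholds were chosen with earlier results of these data known. Python 3.11.15, scipy 1.17.1, pandas 2.3.3, R 4.3.3 and limma 3.58.1 were used.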

Additional observations from a re-analysis of the deposited data

Results flagged for a closer look

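The local background, which the calls above do not use, carried signal at most chaperone probes. At 76 of the 95 probes, or 80.0%, it exceeded 20.1, the 95th percentile of local background at the 2736 blank spots, where the median was 17.1. The same held for 68.1% of all 20690 named probes. What raised it was not tested.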

How the results depend on the processing

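The share of chaperone genes over the blank threshold ranged from 79.8% with local background subtracted, or with normexp, to 86.5% with 1 SD, and in each alternative it was above the share of all named genes. The share over the receptor threshold was 56.2% with the 99th percentile of the receptor probes, against 27.5% of all genes, and from 65.2% to 75.3% in the other alternatives. A higher limit calls fewer genes by its construction. The median chaperone signal was 10.8 times the median gene in the authors' table and 2.29 times with normexp, and the cause was not tested. Promoters with a heat shock element stood at 26.4% with 2 units in place of 3, which the shorter motif gives by its construction. Of the 89 genes, 69 were over the blank threshold and 46 over the receptor threshold in every setting run, and 12 and 22 were over them in none. Leaving out the pseudogene Dnajc19-ps, an alternative chosen after seeing the data, gave 84.1% and 70.5%. Calls on genes with a motif, given above by setting, were also added after seeing the data. With 1 array no replicate could be left out. No paired analysis was possible because there is 1 sample. Hsf2 and Dnajb5 lay close to the blank threshold, while Cct3, 284 times the blank threshold and 117 times the receptor threshold, lost both calls with local background subtracted or with normexp, its spot being 0.989 times its local background.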
